A study of Homo sapiens with 4 samples.

Results

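Interferon-stimulated antiviral genes were followed in KYSE410, a human cell line from a squamous carcinoma of the oesophagus. The cultures received the cytokine TNFα (tumour necrosis factor α), the cytokine IL1β (interleukin 1β), the bacterial wall component LPS (lipopolysaccharide) or, as solvent control, PBS (phosphate-buffered saline), each for 24 h. The members were 39 gene symbols chosen by name, with earlier results of these data known. A member was measured where a probe set carried a RefSeq transcript of that gene. In all 36 of the 39 were measured, among 17185 named genes. No probe set was matched to IFIT1, IFI27 or HERC6, and these are not analysed here. The experiment was a screen for messenger RNAs that respond to inflammatory stimuli. Each condition was hybridised to 1 single-colour NimbleGen array, so no value below has an error and no test was made. The labels state no doses.

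When an infected cell senses viral nucleic acid it secretes interferon, which binds receptors on the same and neighbouring cells and activates the kinases JAK1 and TYK2. These phosphorylate STAT proteins, among them STAT2, which with IRF9 bind the interferon-stimulated response element in the promoters of many of the genes described here. Their products block viral entry, destroy viral RNA or stop its translation. Epithelial cells carry this system, and some of its genes can also be switched on by IRF1 or NF-κB, which act downstream of TNFα, IL1β and LPS.

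Values are RMA intensities, which the authors obtained by robust multi-array averaging. A gene is called higher or lower on an array that was at least 2-fold (1 on the log2 scale) from another, provided that the brighter value reached a floor of 260 (8.03 on the log2 scale), the median over genes of the mean level. A value under 2 times the random-sequence control set of the same array is called near background. That limit was 112 with TNFα, 112 with IL1β, 113 with LPS and 108 with PBS. A fold against such a value is given as "at least", computed against the limit.

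The cells' own markers were present. Of 12 squamous carcinoma markers 11 were at the floor with TNFα and 12 on each other array, the exception being CDH1. They were not all level. CDH1 (E-cadherin) stood at 232 with TNFα, 287 with IL1β, 284 with LPS and 1209 with PBS and was called lower with each stimulus. The basal keratin KRT14 and the squamous transcription factor TP63 were called higher with LPS (log2 differences of 1.25 and 1.48). The LPS array stood farthest from the rest over genes (Pearson r between 0.924 and 0.929 with the other arrays, against 0.956 to 0.969 among these), so its differences include whatever else set that array apart. Transcripts of leukocytes were not alike across the arrays. The 14 leukocyte markers summed to an intensity of 12492 with TNFα, 15252 with IL1β, 1705 with LPS and 9806 with PBS, and 7, 7, 1 and 4 of them reached the floor. CD3E, CD2, MS4A1 and ITGAM were near background on all 4 arrays. LYZ (lysozyme) alone stood at 5600 with TNFα, 10389.6 with IL1β, 209 with LPS and 6917 with PBS. Without LYZ the other 13 summed to 6892 with TNFα, 4862 with IL1β, 1496 with LPS and 2889 with PBS. Against PBS, PTPRC and FCGR3A were called higher with TNFα, PTPRC, FCGR3A, CSF1R and CD86 higher with IL1β, and LYZ, TYROBP and CD68 lower with LPS. PTPRC, the pan-leukocyte phosphatase, stood at 1295 with TNFα, 1046 with IL1β, 81.5 with LPS and 91.5 with PBS. The Fc receptor FCGR3A stood at 2906 with TNFα, 730 with IL1β, 84.8 with LPS and 212 with PBS. TYROBP, an adaptor of myeloid receptors, was near background with LPS only, at 838 with TNFα, 1048 with IL1β, 82.3 with LPS and 801 with PBS. The part of these transcripts in the results below was not tested.

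Set against PBS, 9 of the 36 members were higher with TNFα and 0 lower, 6 were higher with IL1β and 1 lower, and 8 were higher with LPS and 1 lower. Over all genes the rule called 1.84% higher and 1.86% lower with TNFα, 1.72% and 1.96% with IL1β, and 4.97% and 4.18% with LPS. The shares among members were 25% higher with TNFα, 16.7% with IL1β and 22.2% with LPS. A member had to reach the floor to be called, and 30 of 36 did so in the TNFα comparison, 24 with IL1β and 26 with LPS. Of all 17185 genes 9419, 9427 and 9675 did so, a smaller part than of the members. The median log2 difference of the members from PBS was 0.62 with TNFα, 0.11 with IL1β and 0.44 with LPS, beside -0.03, -0.03 and 0.02 over all genes. With TNFα 33 of 36 members lay above 0 (91.7%, beside 47.1% of all genes), with IL1β 22 (61.1%, beside 47.2%) and with LPS 28 (77.8%, beside 51.4%). The 3 comparisons share the single PBS array, so a deviation of that array would appear in each of them and cannot be told apart from an effect of the stimuli.

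**Figure D1:**
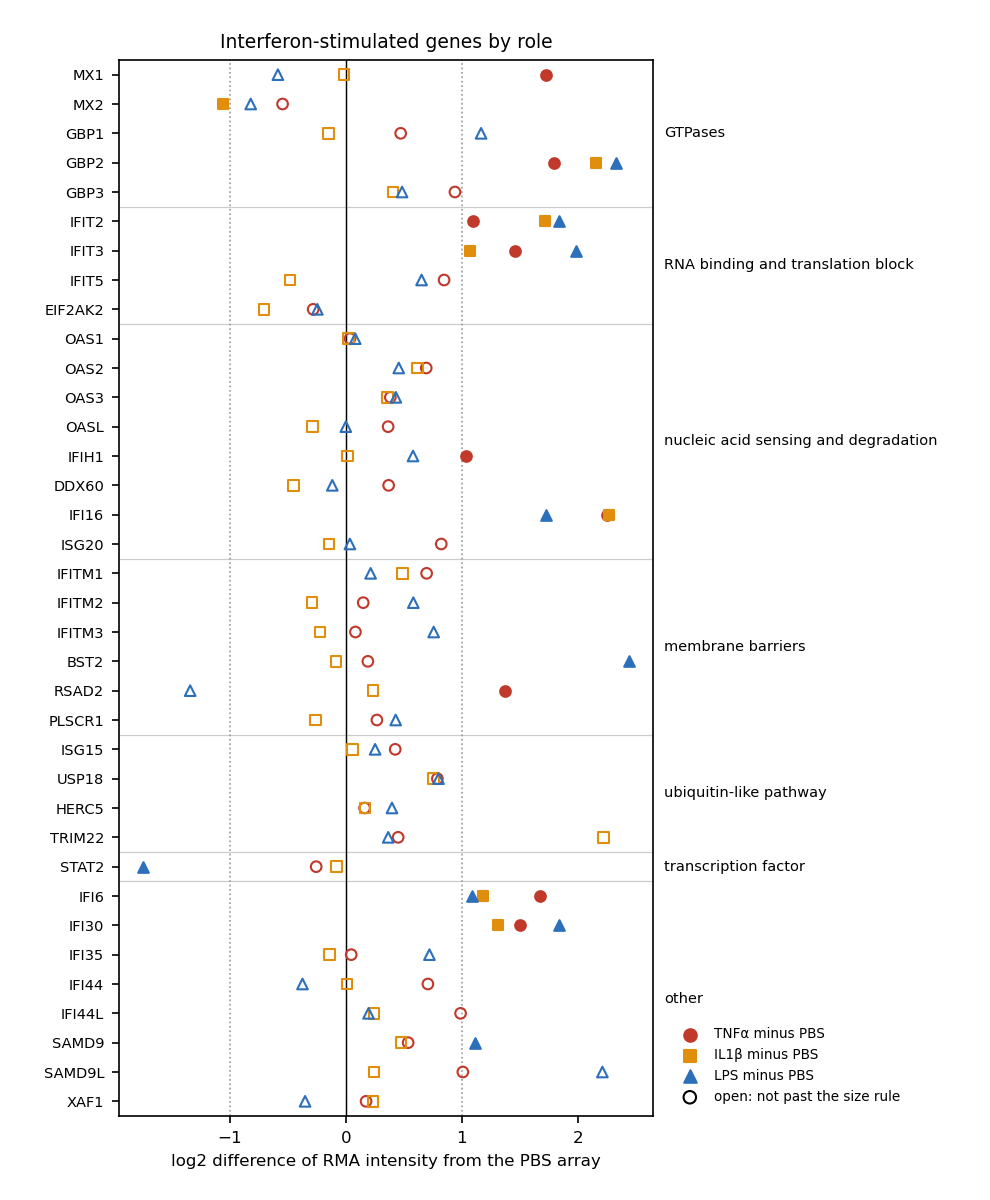
Log2 difference of RMA intensity from the PBS array for the 36 measured members, grouped by role, with TNFα (circles), IL1β (squares) and LPS (triangles). Filled symbols are past the 2-fold size rule with the brighter value at the floor, open symbols are not, and the dotted lines mark 2-fold. MX1 and RSAD2 lie past 1 with TNFα alone, BST2 at 2.44 with LPS alone, and STAT2 at -1.75 with LPS.

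**Figure D2:**
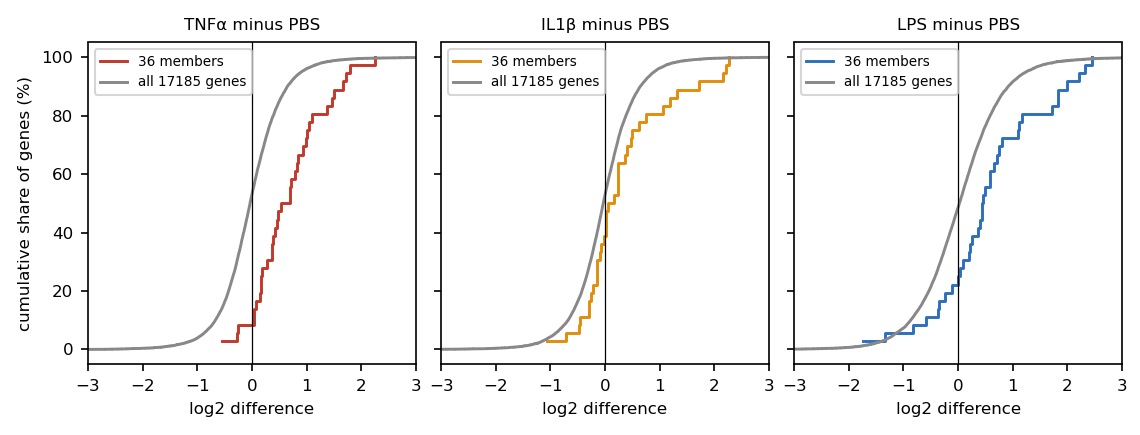
Cumulative share (percent) of the 36 members and of all 17185 genes by log2 difference from PBS, 1 panel for each stimulus. The member curve is displaced to the right with TNFα (median 0.62) and LPS (0.44), and by less with IL1β (0.11). The horizontal axes end at -3 and 3.

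The response element itself was looked for in the promoters, because it is the sequence that STAT2 and IRF9 bind. RefSeq promoter windows (GRCh38.p14, 250 bases before the annotated start) were on hand for 28 measured members, in 36 windows because some genes have several starts. MX2, GBP2, IFIT2, OAS2, OASL, IFITM2, TRIM22 and USP18 had no entry. The core of the element, a GAAA repeated after any 2 bases, was searched on both strands (as TTTC on the other) and was in 22 of the 36 member windows (61.1%), beside 1061 of 35116 windows of all genes (3.02%). By gene, 7 of 10 members called in some comparison with PBS held it, as did 12 of 18 called in none. Over all genes with a window it was held by 1014 of 27305 (3.71%). The gamma-activated site TTCNNNGAA was in 7 member windows (19.4%, beside 6.57% of all windows), and the NF-κB consensus was in 4 (11.1%, beside 7.46%). The sites overlap in the MX1 and BST2 promoters, where a gamma-activated match shares bases with a core match. The stretches shown next are those of members that the results turn on, with ISG15 added as a member that was called nowhere. They read 5′ to 3′ along the gene's strand, with the core in capitals. For MX1, IFIT3 and RSAD2 they belong to 1 of several annotated starts. The IFI44 core lies in the windows of 2 annotated starts, 18 and 60 bases before them. This core, like that of PLSCR1, is thus counted in 2 windows. For IFIH1 only the core nearest the start is shown.
IFI6 (chr1:27672261-27672363, minus strand): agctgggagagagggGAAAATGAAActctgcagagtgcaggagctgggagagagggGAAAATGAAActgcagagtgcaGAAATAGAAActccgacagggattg
IFIT3 (chr10:89332420-89332502, plus strand): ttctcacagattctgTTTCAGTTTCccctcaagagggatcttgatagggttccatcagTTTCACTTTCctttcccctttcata
MX1 (chr21:41431839-41431878, plus strand): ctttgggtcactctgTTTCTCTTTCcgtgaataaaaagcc
RSAD2 (chr2:6877617-6877656, plus strand): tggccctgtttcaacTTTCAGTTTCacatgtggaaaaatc
IFIH1 (chr2:162318685-162318720, minus strand): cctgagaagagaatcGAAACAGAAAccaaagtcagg
BST2 (chr19:17405730-17405775, minus strand): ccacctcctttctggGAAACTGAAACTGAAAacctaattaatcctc
SAMD9 (chr7:93118091-93118130, minus strand): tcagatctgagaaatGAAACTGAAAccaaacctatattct
ISG15 (chr1:1013369-1013414, plus strand): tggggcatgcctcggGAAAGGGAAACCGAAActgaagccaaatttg
IFI44 (chr1:78649756-78649788, plus strand): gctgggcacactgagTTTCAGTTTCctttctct
IFI6, called higher with each stimulus, holds 3 cores within 103 bases. BST2, higher with LPS, and ISG15, not called anywhere, both carry a pair of overlapping cores. IFI16 and IFI30, which were higher on each treated array, had no core match in these windows, nor did STAT2. A match describes the letters of the window only.

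The GTPases divided by gene. MX1, a dynamin-like GTPase that blocks influenza and other viruses, stood at 781 with TNFα, 233 with IL1β, 157 with LPS and 236 with PBS. The TNFα array was thus 3.31-fold above PBS, and the IL1β and LPS arrays lay below the PBS value. MX2, its neighbour in the genome and a restriction factor of HIV, was brightest with PBS, at 212 with TNFα, 149 with IL1β, 175 with LPS and 309 with PBS. It was called lower with IL1β, 2.08-fold, and its log2 differences with TNFα (-0.55) and LPS (-0.82) did not reach the rule. GBP2, a guanylate-binding protein that coats pathogen-containing vacuoles, had 300.3 with TNFα, 387 with IL1β, 436 with LPS and 86.6 with PBS. Because the PBS value was near background, these are folds of at least 2.78, 3.57 and 4.03. The related GBP1 and GBP3 never reached the floor, with GBP1 between 52.9 and 131 and GBP3 near background on all 4 arrays.

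Of the proteins that bind viral RNA and stop translation, IFIT2 and IFIT3 were higher with every stimulus. IFIT2, an RNA-binding protein of the tetratricopeptide family, stood at 627 with TNFα, 959 with IL1β, 1044 with LPS and 292 with PBS. Its folds over PBS were 2.14, 3.28 and 3.57. IFIT3, its partner in the same complex, stood at 737 with TNFα, 562 with IL1β, 1063 with LPS and 268 with PBS, with folds of 2.75, 2.10 and 3.97. For both genes the LPS array was the brightest, but no pair of treated arrays differed by 2-fold. IFIT5, from the same gene cluster, stayed below the floor, between 79.4 and 200 (log2 differences of 0.85, -0.48 and 0.65). EIF2AK2, the kinase PKR that halts translation when it meets double-stranded RNA, was not called, with 1250 after TNFα, 931 after IL1β, 1281 after LPS and 1519 with PBS.

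IFI16, a nuclear sensor of DNA, had the widest difference from PBS on the TNFα and IL1β arrays among members above background on both arrays compared. It stood at 7380 with TNFα, 7473 with IL1β, 5134 with LPS and 1550 with PBS, which are folds of 4.76, 4.82 and 3.31. IFIH1, the double-stranded RNA sensor MDA5, stood at 362 with TNFα, 178 with IL1β, 263 with LPS and 176 with PBS. It passed the rule with TNFα only narrowly (2.06-fold). The exonuclease ISG20 was likewise brightest with TNFα, at 416 with TNFα, 213 with IL1β, 241 with LPS and 235 with PBS, and was not called.

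The oligoadenylate synthetases, which make the messenger that activates RNase L, were not called with any stimulus on their brightest probe sets. OAS1 had log2 differences of 0.04 with TNFα, 0.02 with IL1β and 0.08 with LPS. OAS2 had 0.69, 0.62 and 0.46, OAS3 0.38, 0.36 and 0.43, and the inactive relative OASL 0.36, -0.29 and 0.00. These genes had several transcripts on the array, and the probe sets did not move alike. A second OAS1 set (NM_016816) read 350.1 with TNFα, 289 with IL1β, 413 with LPS and 585 with PBS, and the third (NM_001032409) 296, 132, 504 and 315. On both of these sets the IL1β array was the dimmest, 2.02-fold and 2.39-fold below PBS, whereas the brightest OAS1 set was level over the arrays. The second OASL set (NM_198213) read 445, 356, 224 and 271. The second OAS2 set, below the floor on every array, had log2 differences from PBS of 0.055 with TNFα, 0.026 with IL1β and -0.14 with LPS. The third OAS2 set was near background on all 4 arrays. The other 33 measured members, OAS3 among them, rest on 1 probe set of 3 probes each. Over 622 genes with a second set at the floor, the differences from PBS given by the 2 sets disagreed with an SD of 0.55 log2 for TNFα, 0.57 for IL1β and 0.70 for LPS. A 2-fold difference, 1 on this scale, is thus less than 2 such SDs. They measure the disagreement between 2 sets, not the error of 1 set, and hold no spread between cultures.

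Of the members that act at membranes, BST2 and RSAD2 differed most between the TNFα and LPS arrays. BST2, or tetherin, which holds budding virions on the cell surface, stood at 528 with TNFα, 436 with IL1β, 2513 with LPS and 462 with PBS. The LPS array was 5.44-fold above PBS, 4.76-fold above TNFα and 5.77-fold above IL1β. RSAD2, or viperin, an enzyme that makes a chain terminator of viral RNA synthesis, showed the opposite order, with 548 with TNFα, 250 with IL1β, 83.6 with LPS and 212 with PBS. It was 2.59-fold higher with TNFα than with PBS. The LPS value was near background, at least 4.86-fold below TNFα and at least 1.88-fold below PBS, and the comparison with PBS was not called because neither array reached the floor.

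The IFITM proteins, which stop enveloped viruses fusing with endosomes, were bright on all 4 arrays and none was called. IFITM1 stood at 4755 with TNFα, 4122 with IL1β, 3403 with LPS and 2934 with PBS. IFITM2 stood at 9348, 6877, 12612 and 8424, and IFITM3 at 10514, 8512, 16781 and 9925. IFITM2 and IFITM3 were thus brightest with LPS, and IFITM1 with TNFα. The genes are close paralogs, and signal of one on the probes of another cannot be told apart here. The scramblase PLSCR1 had log2 differences of 0.27, -0.26 and 0.43.

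The ubiquitin-like modifier ISG15 and its enzymes stayed within 2-fold of PBS where they were measured at the floor. ISG15, which is conjugated to viral and host proteins, read 848 with TNFα, 657 with IL1β, 752 with LPS and 631 with PBS. USP18, which removes ISG15 and restrains the interferon receptor, read 264 with TNFα, 258 with IL1β, 266 with LPS and 153 with PBS, log2 differences of 0.79, 0.76 and 0.80. The ligase HERC5 had 0.16, 0.16 and 0.40. TRIM22 was near background on 3 arrays and reached 173 with IL1β, at least 1.60-fold above PBS but below the floor.

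STAT2, the subunit of the interferon-activated transcription factor that carries its activation domain, was lower with LPS. It stood at 741 with TNFα, 837 with IL1β, 263 with LPS and 885 with PBS. The LPS array was 3.36-fold below PBS, 2.81-fold below TNFα and 3.18-fold below IL1β, while the other 3 arrays lay close together.

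Among the remaining members IFI6 and IFI30 were higher with every stimulus. IFI6, a small hydrophobic protein of the endoplasmic reticulum with antiviral action, stood at 873 with TNFα, 622 with IL1β, 583 with LPS and 274 with PBS, with folds of 3.19, 2.27 and 2.13. IFI30, the lysosomal thiol reductase GILT of antigen processing, stood at 10635 with TNFα, 9364 with IL1β, 13436 with LPS and 3760 with PBS, with folds of 2.83, 2.49 and 3.57. Myeloid cells also express IFI30 and IFI16. The part of myeloid transcripts in their values was not tested. SAMD9, a restriction factor of poxviruses, read 411 with TNFα, 393 with IL1β, 611 with LPS and 283 with PBS and was called with LPS only (2.16-fold). Its neighbour SAMD9L was near background except with LPS (146), below the floor. IFI44 and IFI44L, adjacent genes of related sequence, were brightest with TNFα. IFI44 read 945 with TNFα, 583 with IL1β, 446 with LPS and 578 with PBS, and IFI44L 360, 215, 208 and 181. The IFI44L difference with TNFα (0.99) fell just short of the rule. IFI35 (log2 differences of 0.05, -0.14 and 0.72) and the pro-apoptotic XAF1 (0.17, 0.23 and -0.35) were not called, nor was the helicase DDX60, which stayed between 120 and 213.

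**Figure D3:**
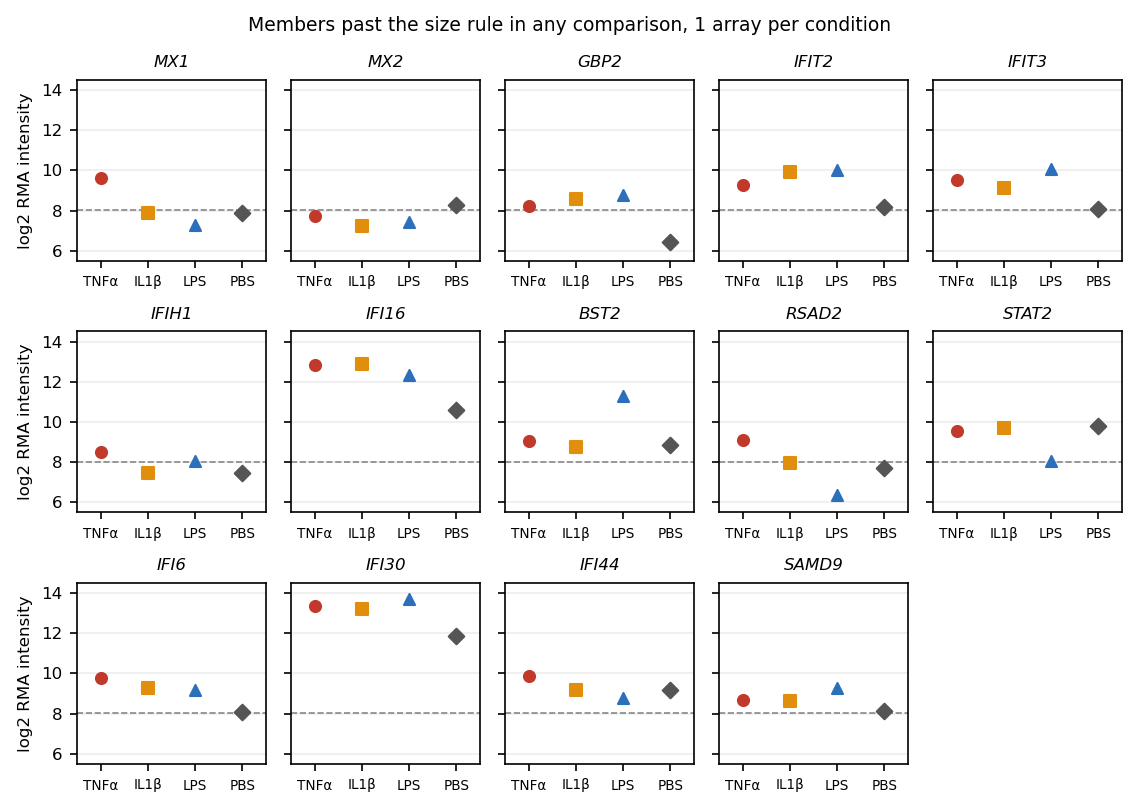
Log2 RMA intensity on the TNFα, IL1β, LPS and PBS arrays for the 14 members past the size rule in any comparison, 1 point per array. The dashed line is the floor at 8.03. The PBS point is the lowest in the panels of GBP2, IFIT2, IFIT3, IFIH1, IFI16, IFI6, IFI30 and SAMD9, while MX1, RSAD2 and IFI44 are highest with TNFα and lowest with LPS.

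The treated arrays were also compared directly, without the PBS array. With TNFα against IL1β, 3 of 36 members were higher and 0 lower, beside 1.01% and 0.937% of all genes. They were MX1 (3.35-fold), RSAD2 (2.20-fold) and IFIH1 (2.04-fold), and the median log2 difference of the members was 0.38, beside 0.00 over all genes. In this comparison the leukocyte markers FCGR3A (3.98-fold) and ITGAX (2.36-fold) were also higher with TNFα, and CSF1R was lower (3.68-fold). The sum of the 14 leukocyte markers was smaller with TNFα than with IL1β, and that of the 13 other than LYZ was larger. With LPS against TNFα, 1 member was higher (BST2) and 4 were lower, beside 5.58% and 3.99% of all genes. The lower members were RSAD2 (at least 4.86-fold), MX1 (4.97-fold), STAT2 (2.81-fold) and IFI44 (2.12-fold). With LPS against IL1β only BST2 was higher and only STAT2 lower, beside 5.96% and 4.21% of all genes, so the counts were no larger than the background. The member medians were -0.13 for LPS minus TNFα and 0.19 for LPS minus IL1β, beside 0.05 and 0.04 over all genes.

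Genes upstream of the members were read from further lists. Of the 9 interferons none was at the floor with TNFα, IL1β or PBS. IFNB1 read 39.0 with TNFα, 63.1 with IL1β, 30.9 with LPS and 38.5 with PBS, and IFNA1, IFNA2, IFNE, IFNL1 and IFNL2 were likewise near background on all 4 arrays. IFNL3 was below the floor but above the background limit on every array, at 153 with TNFα, 129 with IL1β, 123 with LPS and 118 with PBS. IFNG, the type II interferon, was near background except with LPS, where it read 118, and was below the floor. IFNK, the interferon of keratinocytes, alone reached the floor, on the LPS array. It read 37.8 with TNFα, 32.0 with IL1β, 304 with LPS and 75.8 with PBS, at least 2.81-fold above PBS with LPS. A value near background at 24 h gives no information on earlier times.

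Of 6 receptor genes 3 were higher and 0 lower in each comparison with PBS, and these comparisons share the PBS array. The higher share was 50% each time, beside 1.84% of all genes with TNFα, 1.72% with IL1β and 4.97% with LPS. IL10RB, a subunit of the receptor for type III interferons and interleukin 10, stood at 3627 with TNFα, 4220 with IL1β, 3715 with LPS and 485 with PBS. The interferon γ receptor chain IFNGR1 stood at 613, 591, 2009 and 213, and IFNGR2 at 2306, 2692, 2956 and 618. Of the type I receptor chains, IFNAR2 was not called, with log2 differences of -0.17, 0.00 and 0.60. IFNAR1 was near background on 3 arrays and read 114 with TNFα, so it could not be called, and IFNLR1, the specific chain of the type III receptor, also never reached the floor.

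Among 9 measured JAK-STAT and IRF genes 2 were higher with TNFα, 3 with IL1β and 2 with LPS, and none was lower. The higher shares were 22.2%, 33.3% and 22.2%, beside 1.84%, 1.72% and 4.97% of all genes. IRF1, a factor that binds the same response element, stood at 1023 with TNFα, 495 with IL1β, 704 with LPS and 147 with PBS. IRF2, its antagonist on shared sites, stood at 840.4, 1164, 1116 and 195. JAK1 was called with IL1β only, at 1162 with TNFα, 1627 with IL1β, 599 with LPS and 750 with PBS. IRF9, the DNA-binding subunit that joins STAT2, was not called, with 296, 200, 198 and 303. IRF7, the amplifier of interferon production, read 368 with TNFα, 217 with IL1β, 175 with LPS and 187 with PBS and was not called against PBS.

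The other pathway lists held few calls. Of 8 sensing genes (RIGI, DHX58, MAVS, STING1, CGAS, TLR3, TBK1 and IKBKE) none was called with any stimulus. RIGI, DHX58 and TLR3 reached the floor on no array and so could not be called. RIGI read 163 with TNFα, 170 with IL1β, 229 with LPS and 111 with PBS. DHX58 read 93.8, 154, 68.5 and 188, and TLR3 was near background on all 4 arrays. Of 4 feedback genes SOCS3, an inhibitor of cytokine receptor kinases, was lower each time, at 163 with TNFα, 170 with IL1β, 224 with LPS and 934 with PBS. This is 25% of the list lower, beside 1.86% of all genes with TNFα, 1.96% with IL1β and 4.18% with LPS. Of 8 genes associated with interferon γ only the peptide transporter TAP1 was higher, at 2596, 2877, 5369 and 666. This is 12.5% of the list higher with each stimulus, beside 1.84%, 1.72% and 4.97% of all genes. The interferon-induced chemokines CXCL9 and CXCL11 and the enzyme IDO1 were near background on all 4 arrays, and CXCL10 reached 118 with TNFα, just above the limit.

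Between the treated arrays, few of the 44 pathway genes were called. With TNFα against IL1β 1 was higher (IRF1, 2.07-fold) and 0 lower. These are 2.27% and 0%, beside 1.01% and 0.937% of all genes. With LPS against TNFα 4 were higher (IFNK, IFNGR1, TYK2 and TAP1) and 1 lower (IRF7, 2.11-fold). These are 9.09% and 2.27%, beside 5.58% and 3.99% of all genes. With LPS against IL1β 4 were higher (IFNK, IFNGR1, TYK2 and PSMB9) and 2 lower (JAK1 and PIAS1). These are 9.09% and 4.55%, beside 5.96% and 4.21% of all genes. TYK2, the kinase paired with JAK1 on the type I receptor, stood at 414 with TNFα, 455 with IL1β, 1019 with LPS and 573 with PBS. The immunoproteasome subunit PSMB9 stood at 768, 447, 1328 and 706, and PIAS1, an inhibitor of STAT signalling, at 1942, 2299.5, 1094 and 1536.

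**Figure D4:**
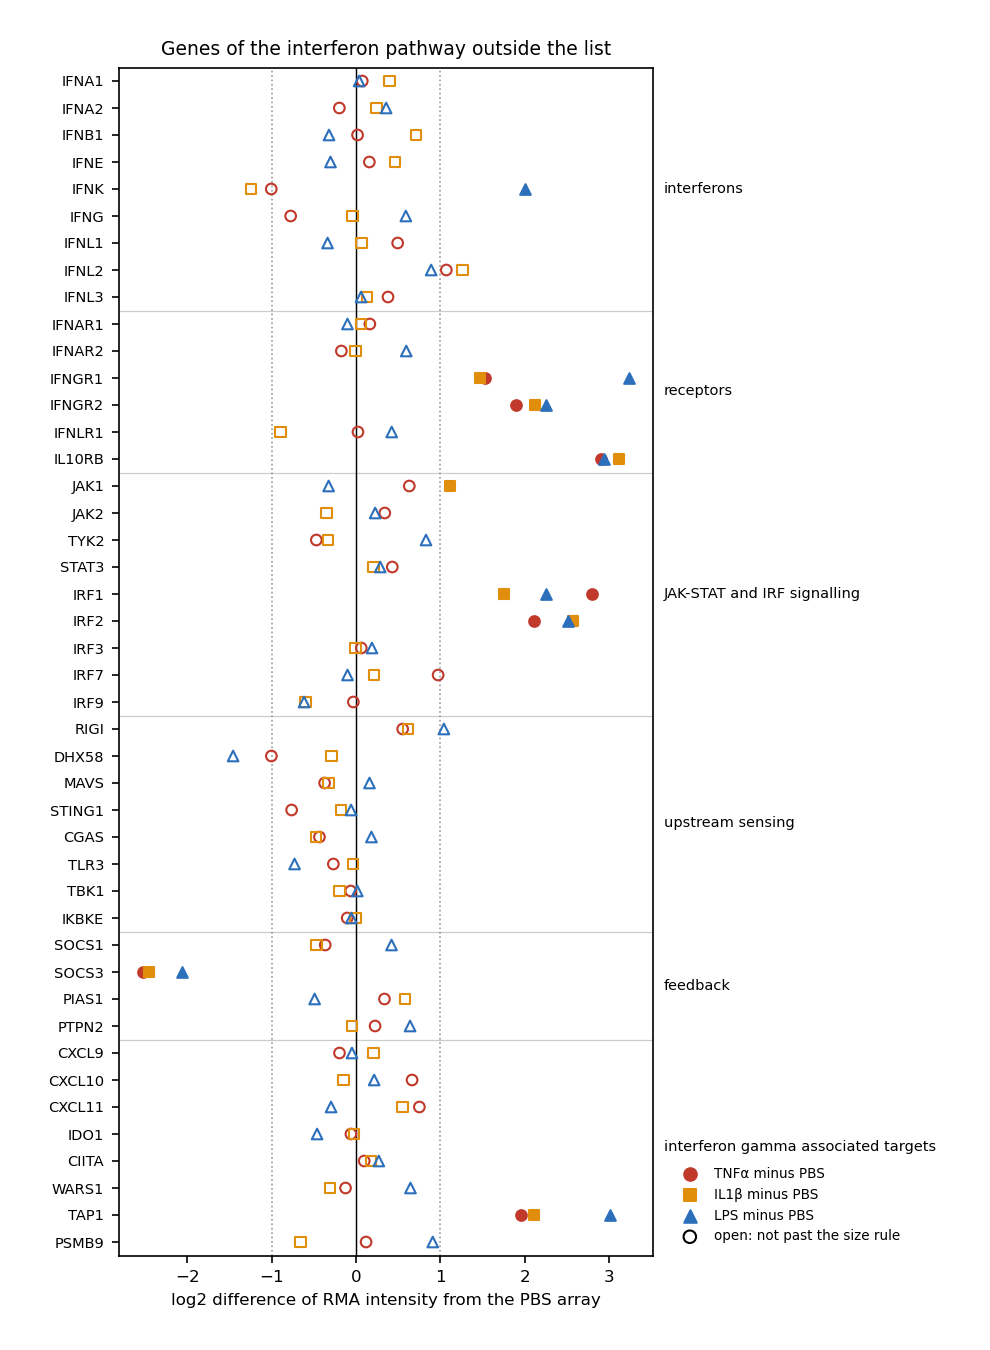
Log2 difference of RMA intensity from the PBS array for 44 measured pathway genes outside the list of members, with TNFα (circles), IL1β (squares) and LPS (triangles), filled where past the size rule. IL10RB, IFNGR1, IFNGR2, IRF1, IRF2 and TAP1 lie to the right of 1 and SOCS3 to the left of -2 with each stimulus, while the interferons other than IFNK are open symbols.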

How the data were processed

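Per the labels' protocols, RNA of each KYSE410 culture was reverse transcribed and labelled with Cy3 for a single-colour array, 1 for each condition. The authors deposited linear RMA intensity values for probe sets, per the file headers. No source used here names the RMA software or settings. Across its 4 columns the series table repeated these values for all 45033 probe sets.

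Accessions without their versions were looked up in RefSeq's GRCh38.p14 gene table, for names only: 18866 probe sets (41.9%) matched 1 symbol, giving 17185 genes. A gene took its probe set of highest mean log2 intensity. RMA usually equalises arrays, which removes a change shared by most genes.

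Differences of log2 intensity were computed with no test, since each condition has 1 array. The number of arrays limits the precision. All members were to be accounted for, and members past the size rule are given on every array. Pathway genes were to be named if called against PBS. IFI44 and ISG15 promoters, and several uncalled members and pathway genes, were chosen for printing after their values were seen. The members and lists were chosen with earlier results of these data known. Simulated data with known changes were used to check the size rule. Computations ran in Python 3.11.15 with pandas 2.3.3, numpy 2.4.6 and statsmodels 0.14.6, and figures in matplotlib 3.10.9.

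The alternatives tried were thresholds of 1.5-fold and 3-fold, dropping the floor or raising it to the 75th percentile, averaging a gene's probe sets or taking its second one, loess centring, repeated quantile normalization, adding an offset of 50.9 before log2, and the series value table. 1 pathway gene is not reported here.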

Additional observations from a re-analysis of the deposited data

How the results depend on the processing

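No paired analysis was possible because each condition has 1 array, and no array could be left out. Only loess centring and repeated quantile normalization could turn the direction of a called difference of a member, and neither did. The other alternatives leave its sign as it is. Loess centring, repeated quantile normalization, the mean of probe sets and the series value table kept every count of members within 1.5 times. The counts depended on the floor and the threshold, as their construction implies. Over PBS the higher members numbered 4 with TNFα, 3 with IL1β and 5 with LPS at the 75th percentile floor, and 4 with TNFα and 3 with IL1β at 3-fold. At 1.5-fold 15 were higher with TNFα, 2 lower with IL1β and 2 lower with LPS. MX2, the member lower with IL1β, was lost at that floor, with the offset and at 3-fold (0 lower each), and the second probe sets gave 2 lower, OAS1 being added. Without a floor 2 were lower with LPS, RSAD2 being added. The offset gave a TNFα median of 0.47. For LPS minus TNFα, no floor gave 2 higher, 1.5-fold 4 higher, and the stricter floor and 3-fold 2 lower each. For LPS minus IL1β, no floor gave 4 higher and 3 lower, and 1.5-fold 7 higher and 2 lower. For TNFα minus IL1β, the stricter floor, the offset and 3-fold each left 1 higher, which was MX1, 1.5-fold gave 7 higher and 1 lower, and no floor gave 1 lower. Calls against PBS kept under all 10 alternatives were MX1, IFI16 and IFI6 with TNFα, and IFIT2 and IFI16 with IL1β. With LPS they were IFIT2, IFIT3, IFI16, BST2, IFI30 and STAT2. Dropping the floor, 1.5-fold, the mean of probe sets, the second probe set and the series value table could not remove these calls. Each of these members has 1 probe set, and the series value table holds the same values. With the offset IFIT2 and IFIH1 with TNFα, IFIT3 and MX2 with IL1β, and IFI6 and SAMD9 with LPS lost their call against PBS. Values near background, as for GBP2 with PBS, give only bounds.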
